A study of Mus musculus with 24 samples.

Results

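The 10 genes described here encode sarcomeric myosin and actin isoforms of the heart and a kinase that acts on them. Myh6, Myh7 and Myh7b encode myosin heavy chains, Myl2, Myl3, Myl4 and Myl7 encode myosin light chains, Acta1 and Actc1 encode sarcomeric actins, and Mylk4 encodes a myosin light chain kinase family member. They were chosen by name, with earlier results of these data known. All 10 were among the 25229 gene symbols of the deposited count table. All 10 also passed the filter on low counts that left 13571 genes for testing.

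Poly-A libraries were sequenced from tissue of the septum and left ventricle, taken from C57BL/6 male mice. Mice had sham surgery or transverse aortic constriction (TAC, a band around the aorta that raises the load on the left ventricle). After a week of recovery they breathed either HEPA-filtered air or air with 50 ppm benzene, a volatile aromatic pollutant, for 6 hours a day on 5 days a week over 6 weeks. The 4 groups, Sham/Air, Sham/Benzene, TAC/Air and TAC/Benzene, held 6 libraries each. All mice were of 1 strain and 1 sex, the labels carry no age, and every group had an operation. The design text gives 6 samples of mouse hearts per group. The labels do not say whether each library is 1 animal, so the p-values measure the spread between these libraries.

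In the sarcomere, myosin forms the thick filament and actin the thin filament, and myosin heads pull on actin to shorten the cell. The adult mouse ventricle relies mainly on the fast alpha heavy chain from Myh6 and on cardiac actin from Actc1. The slow beta heavy chain from Myh7 and skeletal actin from Acta1 are abundant in the fetal heart, and their return is a textbook sign of pressure overload in rodents. Myl2 and Myl3 encode the regulatory and essential light chains of the ventricle, and Myl7 and Myl4 their atrial counterparts.

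Levels are CPM, the counts of a gene relative to the library's total count, scaled by the trimmed mean of M-values (TMM) method. Total counts ran from 4170660 to 14632231 per library, and the 10 genes took between 4.01% and 5.74% of them. Sham/Air replicate 1 stood apart. It had the lowest total, a TMM factor of 0.844 against 0.966 or more in the other 23 libraries, and a summed level of 7 fibroblast markers of 3229 CPM against a group median of 1635 CPM. Sham/Benzene replicate 4 had the highest levels of the atrial light chains. Values without them are given beside the results they bear on. The libraries also differed by replicate number: replicates 1, 2 and 3 did not overlap in CPM with replicates 4, 5 and 6 for 7 of the 10 genes in Sham/Air, 4 in Sham/Benzene, 10 in TAC/Air and 3 in TAC/Benzene. This split was chosen after seeing the data. The share of all tested genes that part by it was not computed, so the counts are not shown to be particular to these genes. The labels used here give no batch, so differences within each set of 3 are given as descriptions, with no test. Cardiomyocyte markers were high in every library: the summed level of 8 markers had medians of 48420 CPM in Sham/Air, 47994 CPM in Sham/Benzene, 37538 CPM in TAC/Air, with 40034 CPM in TAC/Benzene. In bulk tissue, fewer cardiomyocytes and less RNA per cardiomyocyte cannot be told apart.

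**Figure D1:**
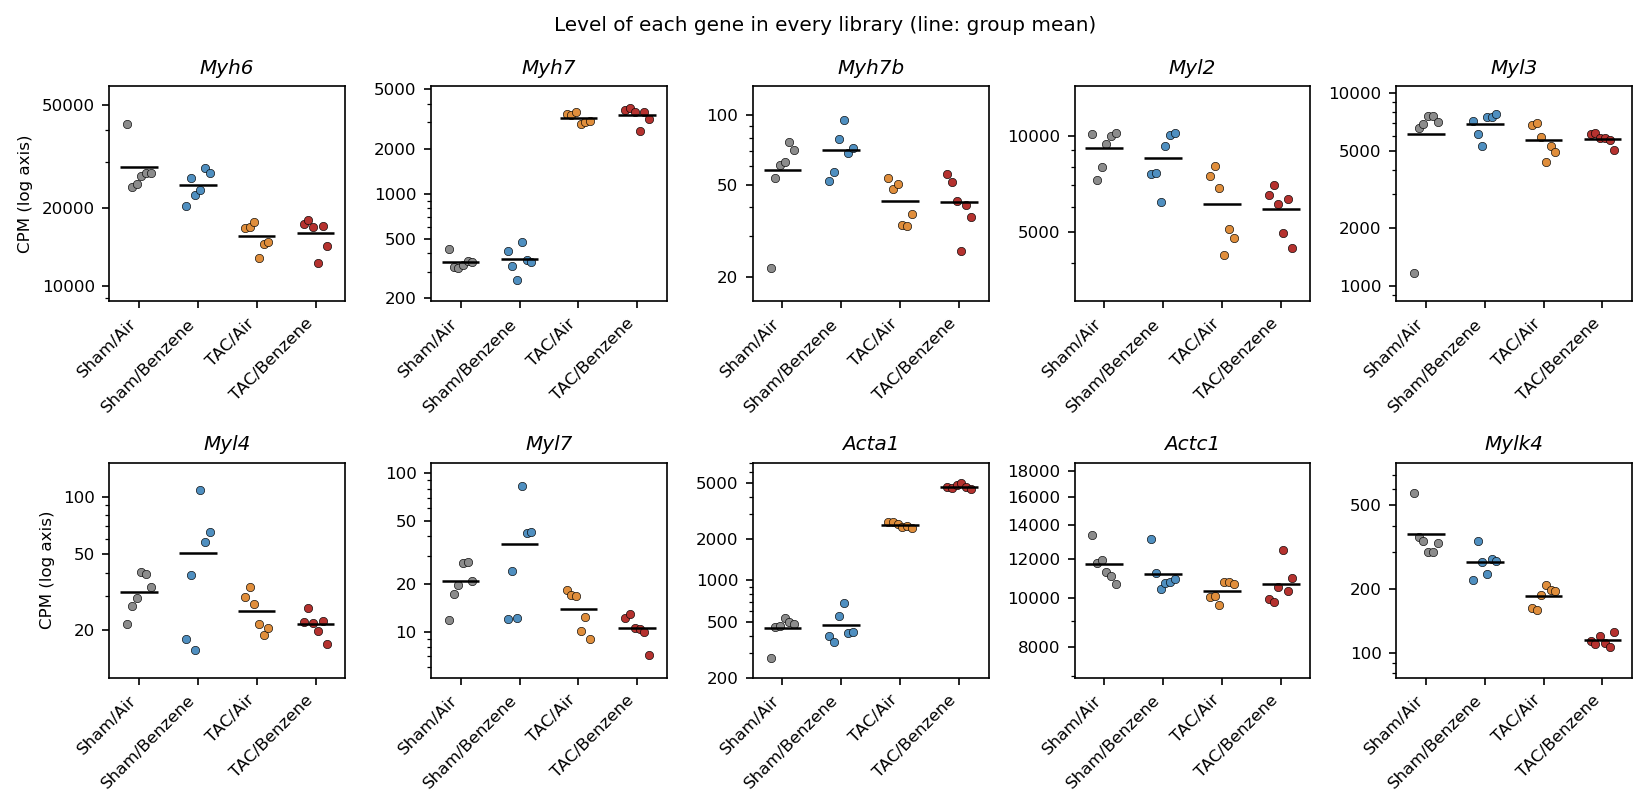
Level of each of the 10 genes in CPM on log axes (vertical) in the 4 groups (horizontal). Each point is 1 library and each line a group mean of 6 libraries. Myh7 and Acta1 are higher in all 12 TAC libraries than in any sham library, and only Acta1 and Mylk4 also separate the TAC groups by exposure.

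TAC moved members of this set in opposite directions. In air, Myh7 and Acta1 rose, Myh6, Myl2 and Mylk4 fell, and 5 of the 10 genes did not pass the test (edgeR quasi-likelihood test, adjusted p under 0.05 over all genes tested). In the same contrast 16.2% of all tested genes passed, 8.81% higher and 7.35% lower. In benzene, Myh7 and Acta1 rose, Myh6, Myh7b, Myl2, Myl4, Myl7 and Mylk4 fell, and Myl3 and Actc1 did not pass, against 16.6% of all tested genes, 8.67% higher and 7.97% lower. In each exposure the sham and TAC groups did not overlap in CPM for 4 members, Myh6, Myh7, Acta1 and Mylk4, against 9.49% of all tested genes in air and 13.9% in benzene. The median log2 fold change of the 10 genes was -0.40 in air and -0.58 in benzene, beside -0.013 and -0.0045 over all tested genes. Because the members were chosen with earlier results known, these comparisons with all tested genes describe the set and do not test it. The TAC contrasts in air and in benzene have no library in common. Each group also entered a contrast of benzene against air and the interaction, so the contrasts across this report share libraries.

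**Figure D2:**
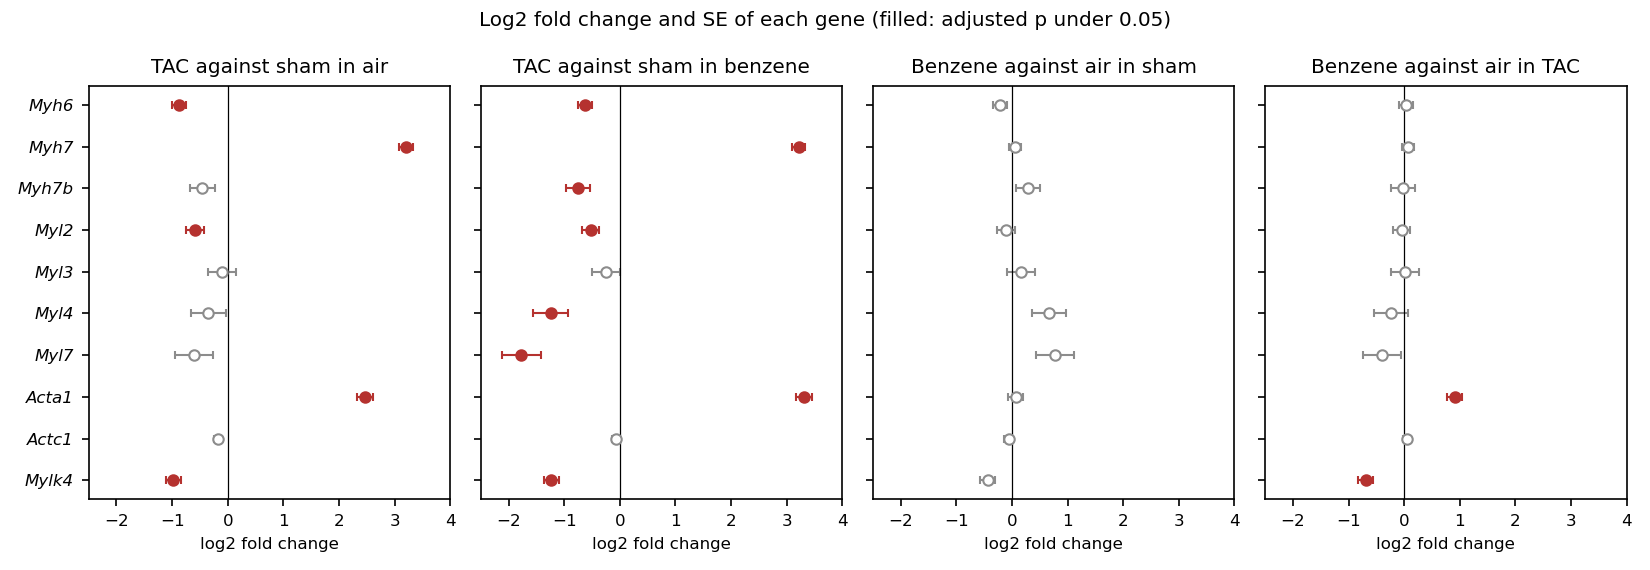
Log2 fold change (horizontal, points) with its standard error (bars) for each of the 10 genes (vertical) in 4 contrasts, from a fit of all 24 libraries. Filled red points passed an adjusted p of 0.05: 5 genes for TAC in air, 8 for TAC in benzene, 0 for benzene in sham mice and 2, Acta1 and Mylk4, for benzene in TAC mice.

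Myh7 encodes the beta heavy chain. Its lowest, median and highest levels were 319 CPM, 342 CPM and 424 CPM in Sham/Air and 266 CPM, 353 CPM and 472 CPM in Sham/Benzene. They were 2918 CPM, 3229 CPM and 3499.6 CPM in TAC/Air and 2640.0 CPM, 3524 CPM and 3759 CPM in TAC/Benzene. Every TAC library was above every sham library, and the exposure groups overlapped within each surgery. TAC raised Myh7 by a log2 fold change of 3.20 ± 0.12 (SE) in air, or 9.20-fold (adjusted p = 2.93e-16), and by 3.21 ± 0.12 in benzene (adjusted p = 3.09e-16). Within replicates 1 to 3 and within 4 to 6 the differences in mean log2 CPM were 3.29 and 3.12 in air and 3.46 and 2.996 in benzene. By p, Myh7 ranked 5 of the 13571 genes in air. The benzene effect was 0.06 ± 0.11 in sham mice (adjusted p = 0.937) and 0.07 ± 0.11 in TAC mice (adjusted p = 1.00).

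Myh6, which encodes the alpha heavy chain, had the highest CPM of the 10 genes in every group. Its lowest, median and highest levels were 23945 CPM, 26796 CPM and 42092 CPM in Sham/Air and 20259 CPM, 24673 CPM and 28391 CPM in Sham/Benzene. They were 12852 CPM, 15726 CPM and 17597 CPM in TAC/Air and 12194 CPM, 16929 CPM and 17976 CPM in TAC/Benzene. The TAC libraries all lay below the sham libraries, and the 42092 CPM belonged to Sham/Air replicate 1. TAC lowered Myh6 by a log2 fold change of -0.88 ± 0.13 in air (adjusted p = 1.51e-05) and of -0.62 ± 0.13 in benzene (adjusted p = 0.000793). Leaving out 1 library at a time gave -0.93 to -0.74 in air, so the fall did not rest on that library. Within replicates 1 to 3 and within 4 to 6 the differences in mean log2 CPM were -0.77 and -0.95 in air and -0.39 and -0.87 in benzene.

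Myh7b encodes a slow-type heavy chain that is expressed at low levels in heart. Its levels ran from 21.9 to 76.8 CPM in Sham/Air, from 51.9 to 95.6 CPM in Sham/Benzene, from 33.0 to 53.3 CPM in TAC/Air and from 25.9 to 55.5 CPM in TAC/Benzene, so the groups overlapped. Its log2 fold change with TAC was -0.45 ± 0.22 in air (adjusted p = 0.172) and -0.75 ± 0.22 in benzene (adjusted p = 0.0166). The lowest sham value was that of Sham/Air replicate 1, and without it the change in air was -0.61 (adjusted p = 0.00937, range over 33 alternatives 0.0001001 to 0.314). In benzene the difference in mean log2 CPM was -0.31 within replicates 1, 2 and 3 and -1.21 within replicates 4, 5 and 6.

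The ratio of Myh7 to Myh6 compares both chains within each library and so does not depend on the scaling between libraries. Per kilobase of transcript, the lowest, median and highest ratios were 0.988%, 1.27% and 1.32% in Sham/Air and 1.17%, 1.25% and 2.00% in Sham/Benzene. They were 19.5%, 20.3% and 22.3% in TAC/Air and 20.4%, 20.5% and 22.0% in TAC/Benzene. No TAC library came near a sham library. On the log2 scale of counts the ratio rose by 4.06 ± 0.07 (SE) with TAC in air, or 16.7-fold, and by 3.86 ± 0.15 in benzene, or 14.5-fold. In the exact two-sided permutation test of 6 against 6 libraries, both had an adjusted p of 0.00866 over the 20 ratio tests made, and an unadjusted p of 0.00216, the smallest that 924 arrangements can give. Benzene moved the log2 ratio by 0.24 ± 0.16 in sham mice (exact permutation test, adjusted p = 0.380) and by 0.03 ± 0.03 in TAC mice (adjusted p = 0.473).

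Within the TAC groups the ratio varied less than either gene did. In TAC/Benzene the SD of log2 CPM was 0.22 for Myh6 and 0.19 for Myh7, while the SD of their log2 ratio was 0.04. In TAC/Air the SDs were 0.17 and 0.11 for the genes and 0.07 for the ratio. In TAC/Benzene, replicate 4 had the lowest level of both genes and replicate 2 the highest of both. In Sham/Benzene, by contrast, the SD was 0.37 for the ratio and 0.19 and 0.29 for Myh6 and Myh7.

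**Figure D3:**
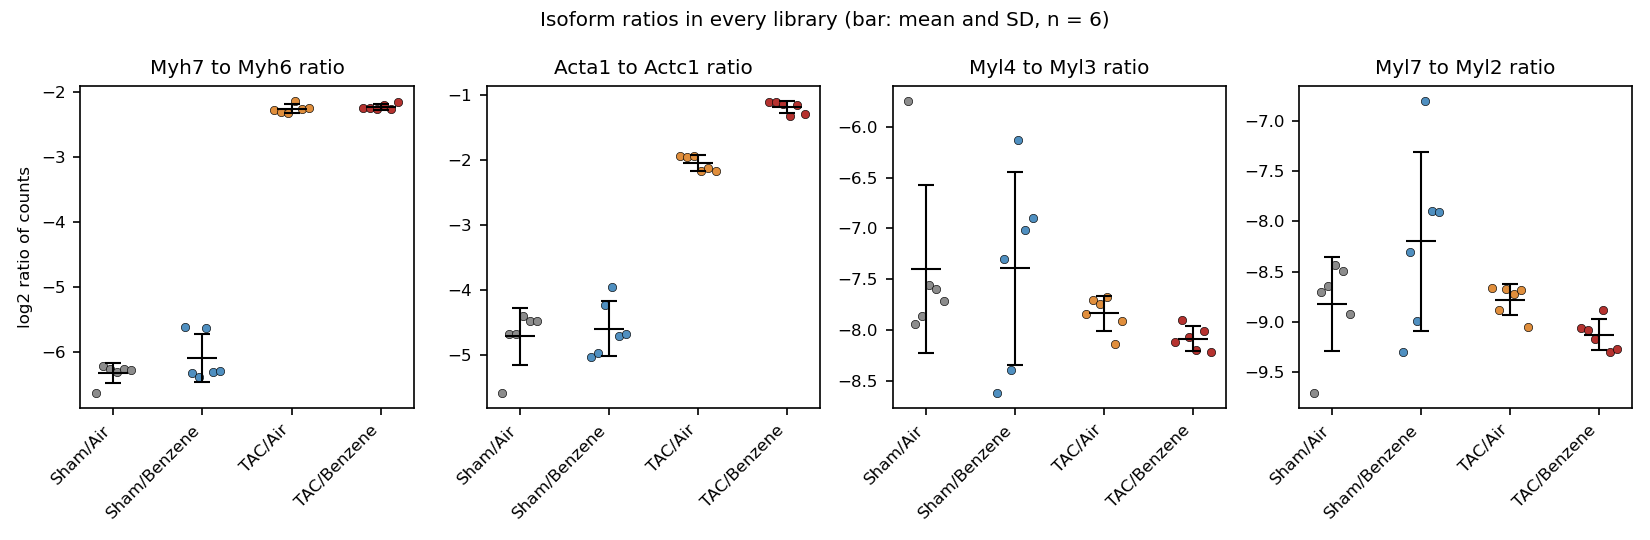
Log2 ratio of counts (vertical) for 4 isoform pairs in each library (points) of the 4 groups (horizontal), with the group mean and SD (bars, n = 6). Myh7 to Myh6 separates TAC from sham with no difference by exposure that passed the test, and Acta1 to Actc1 separates TAC/Benzene from TAC/Air as well.

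As a share of all 3 heavy chain genes per kilobase, Myh7 made up 1.21% ± 0.12 (SD, n = 6) in Sham/Air, 1.45% ± 0.39 in Sham/Benzene, 16.9% ± 0.68 in TAC/Air and 17.2% ± 0.43 in TAC/Benzene. The summed level of the 3 genes was 4741 ± 1109 CPM per kilobase in Sham/Air (4298 ± 253 without replicate 1, n = 5), 4090 ± 506 in Sham/Benzene, 3066 ± 337 in TAC/Air and 3156 ± 433 in TAC/Benzene. On this scale the gain of Myh7 was smaller than the loss of Myh6. The mean summed heavy chain level was lower in the TAC groups, with no test made on the sums. In air the lowest sham sum, 3978, was above the highest TAC sum, 3449. In benzene the sums overlapped, with a lowest sham sum of 3389 and a highest TAC sum of 3552. Myh7 and Myh6 share 91.5% of aligned coding bases, and 330 of the 6081 windows of 150 bases in the Myh7 transcript, or 5.43%, also occur in Myh6. Reads from such windows could be counted for either gene, and how the authors counted them is not given in the sources used here.

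Myh6 and Myh7 lie next to each other on mouse chromosome 14, and their promoters are shown because the genes moved in opposite directions under TAC. The sequences are the 250 bases before each start site from RefSeq (build GRCm38.p6), on the minus strand at chr14:54966608-54966857 for Myh6 and chr14:54994627-54994876 for Myh7, with matches to CATTCC on either strand in capitals.
Myh6: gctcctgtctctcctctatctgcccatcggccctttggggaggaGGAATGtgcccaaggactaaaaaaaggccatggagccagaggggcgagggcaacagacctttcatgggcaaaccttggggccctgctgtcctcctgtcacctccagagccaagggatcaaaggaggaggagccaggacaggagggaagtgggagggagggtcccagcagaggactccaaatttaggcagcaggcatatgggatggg
Myh7: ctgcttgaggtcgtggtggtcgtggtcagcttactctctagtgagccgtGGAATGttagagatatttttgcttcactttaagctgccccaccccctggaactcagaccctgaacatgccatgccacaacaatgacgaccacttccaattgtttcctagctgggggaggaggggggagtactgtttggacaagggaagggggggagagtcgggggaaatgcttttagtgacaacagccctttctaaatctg
CATTCC is the core of the MCAT element bound by TEAD factors. In both promoters the match was GGAATG, its reverse complement, from 206 to 201 bases before the start of Myh6 and from 201 to 196 bases before that of Myh7. A match to CATTCC occurred in 12.6% of 32851 promoters of the same length.

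The heavy chain genes also host microRNAs in their introns, which poly-A libraries do not measure. Their mature sequences from RefSeq are shown with the seed, bases 2 to 8, in capitals because the genes with opposite changes carry the same seed.
miR-208a-3p, in Myh6: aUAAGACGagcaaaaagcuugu
miR-208b-3p, in Myh7: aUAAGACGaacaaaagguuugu
miR-499-5p, in Myh7b: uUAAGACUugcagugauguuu
The seed of miR-499-5p was UAAGACU, while UAAGACG was the seed of both miR-208a-3p and miR-208b-3p.

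Acta1, which encodes skeletal alpha-actin, was the member with the clearest difference by exposure. Its lowest, median and highest levels were 279 CPM, 476 CPM and 534 CPM in Sham/Air and 360.5 CPM, 422 CPM and 693 CPM in Sham/Benzene. They were 2385 CPM, 2507 CPM and 2646 CPM in TAC/Air and 4515 CPM, 4666 CPM and 5029.6 CPM in TAC/Benzene. The sham groups overlapped, all TAC/Air libraries lay above them, and all TAC/Benzene libraries lay above those. TAC raised Acta1 by a log2 fold change of 2.46 ± 0.14 in air, or 5.52-fold (adjusted p = 1.45e-12), and by 3.31 ± 0.15 in benzene, or 9.91-fold (adjusted p = 9.46e-15).

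In TAC mice, benzene raised Acta1 by a log2 fold change of 0.91 ± 0.14, or 1.88-fold (adjusted p = 0.000535), and lowered Mylk4. These were 2 of the 10 members, against 0.582% of all tested genes in that contrast, 0.295% higher and 0.287% lower. The groups also did not overlap in CPM for these 2 members, against 2.7% of all tested genes. Here too the members were chosen with earlier results known, so the shares do not test the set. By p, Acta1 ranked 16 and Mylk4 ranked 27 of the 13571 genes. Over 33 alternatives the adjusted p of the Acta1 change ran from 1.23e-09 to 0.00290. The difference in mean log2 CPM was 0.85 within replicates 1 to 3 and 0.97 within replicates 4 to 6. The libraries of these groups were close to each other: the coefficient of variation of Acta1 was 4.35% in TAC/Air and 3.95% in TAC/Benzene.

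In sham mice no member passed for benzene against air, where 0.0221% of all tested genes did. With edgeR 0 of the 10 were called, with DESeq2 0 and with limma-voom 0, while 3 (Myl4, Myl7 and Mylk4) had an unadjusted p under 0.05. The Acta1 change there was 0.06 ± 0.14 (adjusted p = 0.939). The test of the difference between the benzene effects in TAC and sham mice, the interaction, called 0 of the 10 members in edgeR, against 0.169% of all tested genes, with 2 (Myl7 and Acta1) at an unadjusted p under 0.05. Shares of all tested genes at that unadjusted threshold are not given for either contrast. For Acta1 the interaction was 0.85 ± 0.19 (adjusted p = 0.0917). DESeq2 called Acta1 (0.85, adjusted p = 0.00708), and limma-voom with quality weights called Acta1 (1.03, adjusted p = 2.57e-06) and Mylk4 (-0.44, adjusted p = 0.0356). In edgeR Acta1 also passed when Sham/Air replicate 1 was left out (0.95, adjusted p = 0.00135) or Sham/Benzene replicate 4 was left out (0.99, adjusted p = 0.00671), the lowest and highest sham libraries for this gene. Over 32 alternatives its interaction ran from 0.78 to 1.09 and its adjusted p from 2.10e-06 to 0.196.

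Actc1, which encodes cardiac alpha-actin, stayed within a narrow range. Its lowest, median and highest levels were 10701 CPM, 11514 CPM and 13374 CPM in Sham/Air and 10419 CPM, 10857 CPM and 13124 CPM in Sham/Benzene. They were 9698 CPM, 10392 CPM and 10795 CPM in TAC/Air and 9818 CPM, 10437 CPM and 12514 CPM in TAC/Benzene. The 4 groups overlapped. Its log2 fold change with TAC was -0.18 ± 0.08 in air (adjusted p = 0.123) and -0.07 ± 0.08 in benzene (adjusted p = 0.668). DESeq2 called it in air (-0.19, adjusted p = 0.0449, range over 33 alternatives 0.0449 to 0.254).

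The ratio of Acta1 to Actc1, per kilobase, had a lowest, median and highest value of 2.13%, 4.31% and 4.82% in Sham/Air and 3.11%, 3.96% and 6.59% in Sham/Benzene. It was 22.7%, 24.9% and 26.8% in TAC/Air and 40.9%, 46.3% and 47.6% in TAC/Benzene, with no overlap between the TAC groups or with sham. On the log2 scale of counts it rose by 2.67 ± 0.19 with TAC in air (6.35-fold), by 3.41 ± 0.18 with TAC in benzene (10.6-fold) and by 0.86 ± 0.06 with benzene in TAC mice (1.82-fold). Each had an adjusted p of 0.00866 in the exact permutation test. Benzene in sham mice gave 0.12 ± 0.25 (exact permutation test, adjusted p = 0.750). The interaction was 0.75 ± 0.26 (permutation of exposure labels within each surgery, adjusted p = 0.0700). Without Sham/Air replicate 1 and Sham/Benzene replicate 4 it was 1.05 (adjusted p = 0.00481, range over 28 alternatives 0.00481 to 0.138). The exact null of this permutation is no benzene effect in either surgery, so it is not an exact test of equal benzene effects.

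Acta1 supplied 3.86% ± 0.93 (SD, n = 6) of the 2 actin genes' level per kilobase in Sham/Air, 4.19% ± 1.23 in Sham/Benzene, 19.8% ± 1.31 in TAC/Air and 31.1% ± 1.42 in TAC/Benzene. The summed actin level was 8253 ± 582 CPM per kilobase in Sham/Air, 7931 ± 631 in Sham/Benzene, 8764 ± 260 in TAC/Air and 10524 ± 765 in TAC/Benzene. The lowest TAC/Benzene sum, 9837, was above the highest TAC/Air sum, 9019. Unlike the mean heavy chain sum, the mean actin sum was not lower in the TAC groups. No window of 150 bases was shared between the Acta1 and Actc1 transcripts, whose coding sequences agree at 86.3% of aligned bases.

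**Figure D4:**
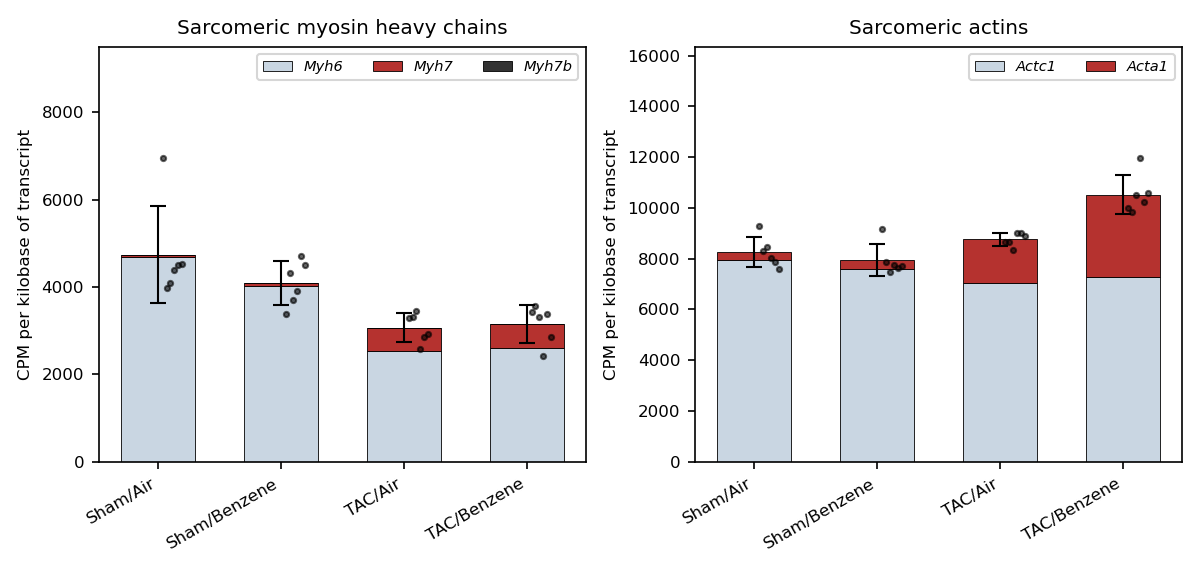
Summed level of the 3 heavy chain genes (left) and of the 2 actin genes (right) in CPM per kilobase of transcript (vertical) in the 4 groups (horizontal). Stacked bars are group means by gene, points are library sums and error bars their SD (n = 6). The mean heavy chain sum is 4741 in Sham/Air and 3066 in TAC/Air, and the mean actin sum is 8764 in TAC/Air and 10524 in TAC/Benzene, where the Acta1 part is the larger.

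Acta1 also changed place in the order of levels per kilobase. In TAC/Benzene it stood at 3261 ± 129 CPM per kilobase (SD, n = 6) against 2607 ± 367 for Myh6, and was above Myh6 in 6 of 6 libraries. In TAC/Air it stood at 1737 ± 75.5 against 2542 ± 297, below Myh6 in all 6 libraries. In the sham groups it stood at 315 in air and 329 in benzene, against 4676 and 4020 for Myh6. Myl2, Actc1 and Myl3 held the top 3 places by mean in every group, with library ranges of Myl2 and Actc1 that overlapped in each. Myh7b was last in every group, between 6.83 and 11.5 CPM per kilobase.

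The actin promoters are shown because Acta1 and Actc1 parted under TAC and again under benzene in TAC mice. They are the 250 bases before each start site (RefSeq, GRCm38.p6), on the minus strand at chr8:123894776-123895025 for Acta1 and chr2:114052876-114053125 for Actc1, with matches to CATTCC and to the CArG box, the site of serum response factor, in capitals.
Acta1: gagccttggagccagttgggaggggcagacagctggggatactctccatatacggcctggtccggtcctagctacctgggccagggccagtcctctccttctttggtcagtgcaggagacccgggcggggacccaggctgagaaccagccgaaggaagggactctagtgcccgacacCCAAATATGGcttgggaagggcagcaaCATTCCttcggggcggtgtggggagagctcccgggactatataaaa
Actc1: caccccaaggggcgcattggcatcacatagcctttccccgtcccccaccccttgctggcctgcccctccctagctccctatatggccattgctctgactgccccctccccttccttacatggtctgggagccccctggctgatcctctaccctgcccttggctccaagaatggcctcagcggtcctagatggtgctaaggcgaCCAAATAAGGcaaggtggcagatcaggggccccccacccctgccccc
Both promoters held a CArG box, CCAAATATGG from 73 to 64 bases before the start of Acta1 and CCAAATAAGG from 47 to 38 bases before that of Actc1. Acta1 also held CATTCC from 46 to 41 bases before its start, and Actc1 had no match to it in this window. A CArG box occurred in 1.47% of 32851 promoters, searched on both strands, and it did not overlap the CATTCC match. Among the other members, Myl3 and Myl7 had matches to both motifs in the same window.

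Because Acta1 is also the main actin of skeletal muscle, skeletal markers were examined beside it. The summed level of 12 skeletal muscle genes, members left out, ran from 19.7 to 37.0 CPM in the sham groups and from 31.6 to 45.2 CPM in the TAC groups. Myh4, the fast skeletal heavy chain, had no count in any Sham/Air or TAC/Air library and at most 1 count in a library of the benzene groups. Acta1 itself ran from 2385 to 5029.6 CPM in the TAC groups. Of 5 skeletal markers that could be tested, 1 rose and 1 fell with TAC in each exposure. That is 40%, against 16.2% of all tested genes in air and 16.6% in benzene. The part of skeletal muscle in the Acta1 values was not tested.

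Mylk4 encodes a kinase of the myosin light chain kinase family that is enriched in heart and skeletal muscle. Its lowest, median and highest levels were 300.1 CPM, 336 CPM and 570.2 CPM in Sham/Air and 223 CPM, 271 CPM and 337 CPM in Sham/Benzene. They were 160.0 CPM, 192 CPM and 209 CPM in TAC/Air and 107 CPM, 113 CPM and 125 CPM in TAC/Benzene. The TAC groups did not overlap with each other or with sham, and the 570.2 CPM was Sham/Air replicate 1, next to 354 CPM. TAC lowered Mylk4 by a log2 fold change of -0.98 ± 0.13 in air (adjusted p = 4.30e-06) and -1.23 ± 0.13 in benzene (adjusted p = 9.30e-08). Leaving out 1 library at a time gave -1.03 to -0.81 in air.

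Benzene lowered Mylk4 in TAC mice by -0.69 ± 0.13 on the log2 scale (adjusted p = 0.00750), with adjusted p between 7.85e-08 and 0.0378 over 33 alternatives. The difference in mean log2 CPM was -0.57 within replicates 1 to 3 and -0.81 within replicates 4 to 6. In sham mice the change was -0.44 ± 0.13 (adjusted p = 0.475), and the interaction was -0.25 ± 0.18 (adjusted p = 1.00). Without Sham/Air replicate 1 these were -0.27 (adjusted p = 0.468) and -0.42 (adjusted p = 0.185). The Mylk4 and Acta1 changes thus ran in opposite directions in both comparisons that Acta1 passed, TAC against sham and benzene against air in TAC.

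Myl2, the ventricular regulatory light chain, fell with TAC by a log2 fold change of -0.59 ± 0.16 in air (adjusted p = 0.00922) and -0.53 ± 0.16 in benzene (adjusted p = 0.0192). Its levels ran from 7250 to 10208 CPM in Sham/Air, from 6215 to 10207 CPM in Sham/Benzene, from 4259 to 8060 CPM in TAC/Air and from 4449 to 7027 CPM in TAC/Benzene. The groups overlapped. In TAC/Air, replicates 1, 2 and 3 had 6869 to 8060 CPM and replicates 4, 5 and 6 had 4259 to 5119 CPM. In Sham/Benzene the order was the other way, with 6215 to 7645 CPM in replicates 1, 2 and 3 and 9314 to 10207 CPM in replicates 4, 5 and 6. The difference in mean log2 CPM with TAC was thus -0.16 in air and -0.12 in benzene within replicates 1 to 3, and -1.07 and -0.92 within replicates 4 to 6. The benzene call was lost without Sham/Benzene replicate 5 (adjusted p = 0.0513), without Sham/Benzene replicate 6 (0.0533) or without TAC/Benzene replicate 6 (0.0547).

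Myl3, the ventricular essential light chain, passed in no contrast in the edgeR fit of all 24 libraries. Its levels ran from 1163 to 7641 CPM in Sham/Air, from 5306 to 7774 CPM in Sham/Benzene, from 4381 to 6995 CPM in TAC/Air and from 5042 to 6211 CPM in TAC/Benzene. The 1163 CPM was Sham/Air replicate 1, and the other 5 libraries of that group had 6560 to 7641 CPM. The log2 fold change with TAC was -0.10 ± 0.25 in air (adjusted p = 0.828) and -0.25 ± 0.25 in benzene (adjusted p = 0.600). Without Sham/Air replicate 1 the change in air was -0.32 (adjusted p = 0.0235, range over 33 alternatives 0.0158 to 0.945). In benzene it passed in limma-voom (-0.31, adjusted p = 0.0122) and in a fit of only the 2 groups compared (-0.25, adjusted p = 0.0443).

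The atrial light chains were low in every group. Myl4, the atrial essential light chain, had a lowest, median and highest level of 21.6 CPM, 31.5 CPM and 40.3 CPM in Sham/Air, 15.7 CPM, 48.3 CPM and 108 CPM in Sham/Benzene, 18.8 CPM, 24.4 CPM and 33.5 CPM in TAC/Air, and 16.9 CPM, 21.9 CPM and 26.0 CPM in TAC/Benzene. Myl7, the atrial regulatory light chain, had 11.9 CPM, 20.4 CPM and 27.7 CPM in Sham/Air, 12.02 CPM, 33.1 CPM and 83.5 CPM in Sham/Benzene, 9.05 CPM, 14.6 CPM and 18.5 CPM in TAC/Air, and 7.18 CPM, 10.6 CPM and 12.9 CPM in TAC/Benzene. Sham/Benzene was the most spread group for both, with replicate 4 highest and replicates 1 and 3 lowest. TAC lowered both in benzene, Myl4 by -1.24 ± 0.31 (adjusted p = 0.00546) and Myl7 by -1.77 ± 0.35 (adjusted p = 0.000501) on the log2 scale. Leaving out 1 library at a time gave -1.44 to -0.88 for Myl4 (highest adjusted p = 0.0288) and -1.96 to -1.34 for Myl7 (highest adjusted p = 0.00200). In Sham/Benzene, replicates 1, 2 and 3 had 15.7 to 38.9 CPM of Myl4 and 12.02 to 24.1 CPM of Myl7, and replicates 4, 5 and 6 had 57.7 to 108 CPM and 42.1 to 83.5 CPM. The difference in mean log2 CPM with TAC in benzene was 0.06 for Myl4 and -0.36 for Myl7 within replicates 1 to 3, and -1.93 and -2.54 within replicates 4 to 6. In air the changes were -0.35 ± 0.31 (adjusted p = 0.507) and -0.60 ± 0.34 (adjusted p = 0.264). The interaction was -0.89 ± 0.44 for Myl4 (adjusted p = 1.00) and -1.17 ± 0.48 for Myl7 (adjusted p = 0.900), so the fall was not shown to differ between exposures. Leaving out 1 library at a time gave interactions of -1.08 to -0.52 and of -1.35 to -0.73, with no adjusted p below 0.558.

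Atrial markers moved in both directions. Of the 9 of 11 that could be tested, 2 rose (Dkk3 and Myl1) and 3 fell (Kcnj3, Sln and Mybphl) with TAC in benzene, with a median log2 fold change of -0.11, and 1 rose (Dkk3) and 1 fell (Kcnj3) in air. The called share was 55.6% in benzene and 22.2% in air, against 16.6% and 16.2% of all tested genes. Without Sham/Air replicate 1 and Sham/Benzene replicate 4 it was 44.4% and 33.3%, against 27.2% and 23.6%. Sln and Mybphl were chosen for display after their values were seen. Sln, an inhibitor of the calcium pump in atrial muscle, ran from 2.68 to 24.8 CPM in Sham/Benzene and from 3.67 to 5.49 CPM in TAC/Benzene, and Mybphl, a myosin binding protein of the atria, from 0.844 to 9.73 CPM and from 0.976 to 2.71 CPM. Both were highest in Sham/Benzene replicate 4, and both fell with TAC in benzene, Sln by -1.19 ± 0.32 (adjusted p = 0.00990) and Mybphl by -1.29 ± 0.39 (adjusted p = 0.0203). Without that library neither passed, with changes of -0.76 (adjusted p = 0.0594) and -0.91 (adjusted p = 0.103). With Sham/Air replicate 1 left out as well, Sln passed (adjusted p = 0.0228) and Mybphl did not (0.0648). Over 11 atrial markers the summed level ran from 226 to 426 CPM in Sham/Air (to 255 CPM without replicate 1), 248 to 309 CPM in Sham/Benzene (to 286 CPM without replicate 4), 235 to 247 CPM in TAC/Air and 226 to 250.3 CPM in TAC/Benzene, and no marker was at 0 in a whole group. The part of atrial tissue in the Myl4 and Myl7 values was not tested.

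**Figure D5:**
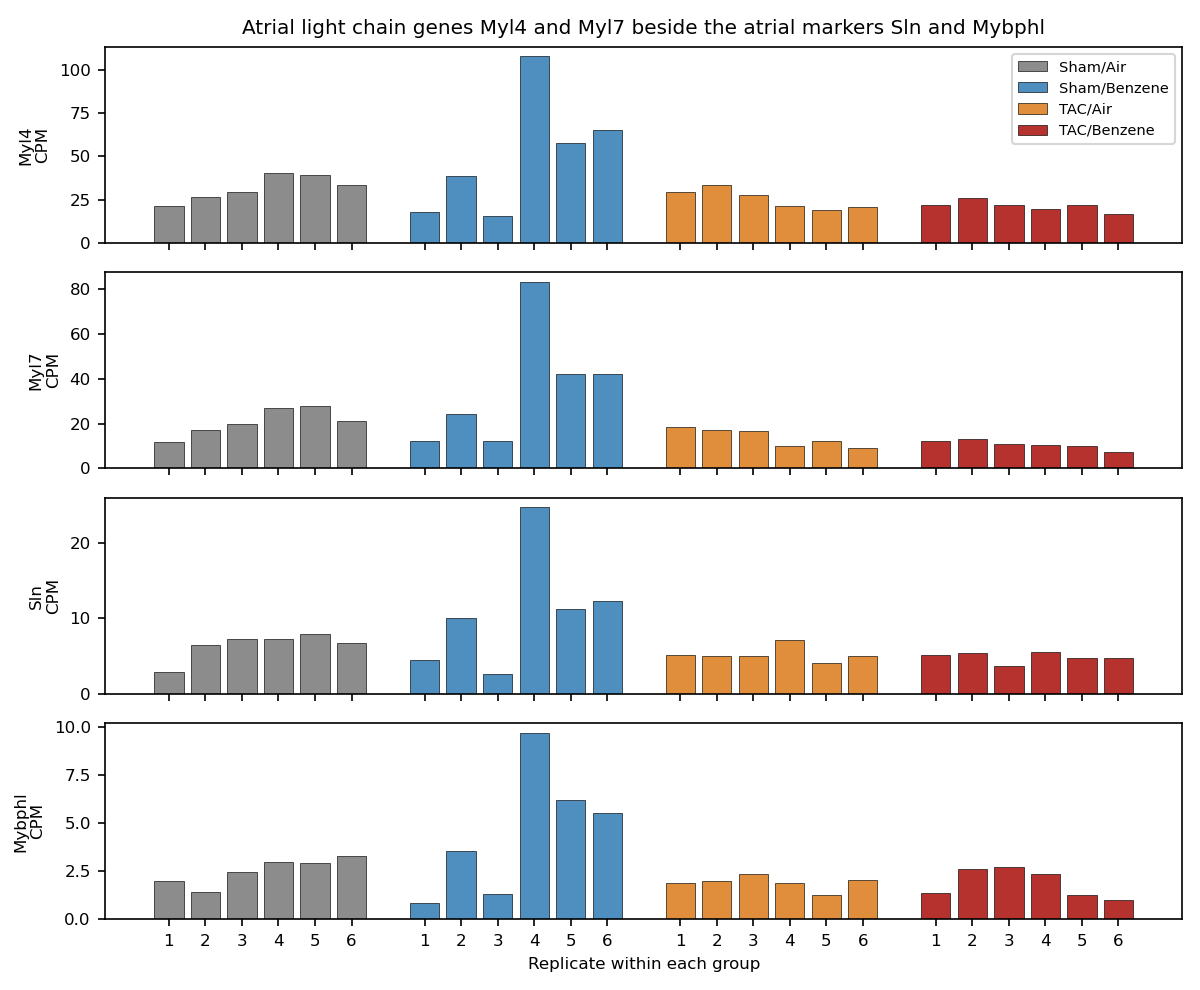
CPM (vertical, linear axes from 0) of the atrial light chain genes Myl4 and Myl7 and the atrial markers Sln and Mybphl in every library (horizontal, replicates 1 to 6 of each group, 1 bar per library). All 4 genes have their highest bar in Sham/Benzene replicate 4, at 108, 83.5, 24.8 and 9.73 CPM.

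The ratios of atrial to ventricular light chains were below 2% per kilobase in every library. The ratio of Myl7 to Myl2 had medians of 0.369%, 0.551%, 0.362% and 0.270% in Sham/Air, Sham/Benzene, TAC/Air and TAC/Benzene. It was lower with benzene in TAC mice by -0.35 ± 0.09 on the log2 scale (exact permutation test, adjusted p = 0.0144), although the groups overlapped. The TAC effect in benzene was -0.92 ± 0.37 (exact permutation test, adjusted p = 0.0700). The interaction was -0.96 ± 0.42 (permutation of exposure labels within each surgery, adjusted p = 0.0595), with the same limit as for Acta1 to Actc1. The ratio of Myl4 to Myl3 passed in none of the 5 contrasts, and its benzene effect in TAC mice was -0.25 ± 0.09 (exact permutation test, adjusted p = 0.0595). Percentages per kilobase depend on the length used. In Sham/Air the mean share of Myl7 in Myl2 and Myl7 was 0.345% by transcript length and 0.217% by coding length. The log2 differences between groups do not depend on it.

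Other genes of the contractile apparatus were counted in the same fit, in which 16.2% of all tested genes passed for TAC in air and 16.6% in benzene. Of 16 tested genes of the thin filament and its length control, 7 fell with TAC in air, and 6 fell and 1 rose in benzene, or 43.8% in each. Tnni3, the cardiac inhibitory troponin, fell by -0.70 ± 0.11 in air and -0.57 ± 0.11 in benzene, and Tnnt1, the slow skeletal troponin T, by -0.90 ± 0.21 and -0.93 ± 0.21. Nrap, an anchor of thin filaments at cell junctions, was the gene that rose in benzene (0.68 ± 0.10). Of 9 other thick filament genes, 2 rose in air and 1 rose and 1 fell in benzene, or 22.2% in each. Mybpc2, the fast skeletal myosin binding protein C, rose in both (0.63 ± 0.13 and 0.76 ± 0.13).

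Among 15 other myosins and actins, the nonmuscle actins Actg1 (0.53 ± 0.11) and Actb (0.33 ± 0.09) rose and smooth muscle Myh11 fell (-0.63 ± 0.13) with TAC in air. In benzene, Myh10, Myl1 and Myl12a rose and Myh11 fell. The called share of this list was 20% in air and 26.7% in benzene. Of 6 myosin light chain kinase and phosphatase genes other than Mylk4, Mylk and Mylk3 fell in air and Mylk3 fell in benzene. The called share was 33.3% in air and, near the 16.6% of all tested genes, 16.7% in benzene. Mylk3, the cardiac light chain kinase, had changes of -0.26 ± 0.08 and -0.47 ± 0.08.

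Of 11 genes for folding and assembly of myosin and actin, 2 rose and 3 fell in air (45.5%) and 2 rose and 2 fell in benzene (36.4%). The myosin chaperone Unc45b fell by -0.38 ± 0.08 in each, and Xirp2, an actin-binding protein of the cell junctions, rose by 2.04 ± 0.29 in benzene. Of 27 regulators of cardiac myosin and actin genes, 1 rose and 5 fell in air (22.2%) and 4 fell in benzene (14.8%), near the share over all tested genes. The thyroid hormone receptor gene Thrb fell in air (-0.70 ± 0.17), and Tbx5 and Hopx, a transcription factor and a homeodomain cofactor of cardiomyocytes, fell in both (Tbx5 -0.51 ± 0.10 and -0.58 ± 0.09, Hopx -0.66 ± 0.17 and -1.03 ± 0.17).

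Without Sham/Air replicate 1 and Sham/Benzene replicate 4 more genes passed for TAC, 23.6% of all tested genes in air and 27.2% in benzene. The thin filament list then had 3 rising and 8 falling genes in each exposure, and the regulators had 1 rising and 6 falling in air and 2 rising and 8 falling in benzene. The other myosins and actins had 5 rising and 1 falling in air and 5 rising and 2 falling in benzene, and the kinase list 1 rising and 2 falling in air and 2 falling in benzene.

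None of these 6 lists had a gene called by edgeR or DESeq2 for benzene in sham mice, for benzene in TAC mice or for the interaction. In TAC mice, limma-voom called 3 of the thin filament genes, 2 of the other myosins and actins and 4 of the folding and assembly genes for benzene. It called 0 in the other lists for that contrast and 0 in all 6 lists for the other contrasts named. At an unadjusted p under 0.05 in edgeR there were 2, 1 and 2 in those lists for benzene in TAC mice and 0 in the thick filament, kinase and regulator lists. For benzene in sham mice there was 1 in each list but the kinases and regulators, which had 0, and for the interaction there were 2 thin filament genes, 3 other myosins and actins and 2 folding and assembly genes. The shares of all tested genes called by limma-voom or at an unadjusted p under 0.05 are not given here. These counts therefore cannot be set against a background.

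Some cell type markers moved with TAC too. Of 8 cardiomyocyte markers, 4 fell in each exposure (50%). Of 7 fibroblast markers 4 rose in each (57.1%), Col1a1, Col1a2, Col3a1 and Postn. Among all tested genes 16.2% passed in air and 16.6% in benzene. Of 6 endothelial markers 0 passed in air and 1 rose in benzene. Of 7 smooth muscle and pericyte markers, 1 rose and 1 fell in air and 1 fell in benzene. Of 6 macrophage markers, 2 rose and 1 fell in air and 2 fell in benzene. The summed fibroblast level had medians of 1635 CPM in Sham/Air, 1699 CPM in Sham/Benzene, 3999 CPM in TAC/Air, with 3827 CPM in TAC/Benzene. Without Sham/Air replicate 1 and Sham/Benzene replicate 4, 6 fibroblast markers rose in each exposure. Of the cardiomyocyte markers 5 then fell in each and 1 rose in benzene, while 23.6% of all tested genes passed in air and 27.2% in benzene. The part of this shift in cell markers in the falls of Myh6, Myl2 and Mylk4 was not tested. For benzene in TAC mice edgeR called 0 of the 8 cardiomyocyte markers (1 at an unadjusted p under 0.05, 0 in DESeq2 and 1 in limma-voom), and their summed level ran from 35782 to 42426 CPM in TAC/Air and from 37211 to 41710 CPM in TAC/Benzene. The summed level of 6 macrophage markers ran from 538 to 592 CPM in TAC/Air and from 467 to 523 CPM in TAC/Benzene, without overlap. For benzene in TAC mice edgeR called 1 of the 6, Adgre1, which fell, with 3 at an unadjusted p under 0.05, while DESeq2 called 3 and limma-voom 4, and the median log2 fold change was -0.39. In edgeR 0.582% of all tested genes passed in that contrast, and the shares for the other counts are not given. The part of this macrophage difference in the Acta1 and Mylk4 values was not tested.

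The genes whose profiles were most like those of Myh7 and Acta1 over the 24 libraries were found by the root-mean-square difference of centred log2 CPM among 12512 genes. For Myh7 they were Sfrp2 (0.28), Col12a1 (0.31), Postn (0.36), Pamr1 (0.38) and Serpinb1c (0.39), and the first 3 stayed among the nearest 5 without Sham/Air replicate 1. For Acta1 they were Nmrk2 (0.38), Mfap4 (0.43), Adamtsl2 (0.43), Serpina3n (0.43) and Lrp8 (0.45), of which Nmrk2 and Mfap4 stayed. Nmrk2, a muscle nicotinamide riboside kinase, was higher with benzene in TAC mice (log2 fold change 0.76, adjusted p = 0.00405 in edgeR). It was picked for its likeness to Acta1 over these same libraries, so this difference is partly given by the choice and is no separate support. For Myh6 the nearest were Klhl38, Mccc1, Epb41, Khdrbs3 and Sdha (0.14 to 0.18), and 0 of these stayed without that library.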

How the data were processed

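The deposited table held raw counts per gene symbol for 24 libraries, 6 per group, made by the authors. Per the submitters' processing notes, FastQC 0.11.9, STAR and DESeq2 were used with the mm9 build, while the program that counted reads, its strand setting and how it treated shared reads were not stated there or in the labels. Without strand, reads of Myh7 and of its antisense transcript Mhrt cannot be told apart. Groups and replicate numbers came from the sample titles. The members and the lists of other genes were chosen with earlier results of these data known.

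Counts were filtered (filterByExpr, minimum count 10 and minimum total 15, which left out 0.0747% of counts), TMM-scaled and fitted with edgeR 4.0.16 (R 4.3.3) in a robust quasi-likelihood model of all 24 libraries. There were 5 contrasts, with Benjamini-Hochberg adjustment over 13571 genes and a threshold of 0.05. The 4 isoform ratios used log2 counts plus 0.5 and exact two-sided permutation tests, adjusted over 20 tests. For their interactions, exposure labels were permuted within each surgery. That permutation is exact for no benzene effect in either surgery, and not for equal benzene effects. Fold changes of the ratios and their SE come from these log2 values. Levels of different genes are per kilobase of the longest coding transcript in GENCODE vM21, which matched 24366 of 25229 symbols (96.6%). RefSeq promoters and microRNAs were used for all 10 members and for the 3 host genes, with coordinates on GRCm38.p6. Every member was named, and from each list up to 4 genes with the smallest p in a contrast. The nearest profiles were the 5 genes with the smallest difference and a mean of at least 1 CPM.

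Alternatives were DESeq2 1.42.0, limma-voom 3.58.1 with quality weights, relative log expression scaling, other filters, only the groups compared, a replicate block, other lengths, a pseudocount of 2, leaving out each library, and, chosen after seeing the data, GC and length offsets and leaving out 2 libraries together, also for list counts and the genes Sln, Mybphl, Mhrt and Mir208b. The edgeR fit and the permutation test were tested on simulated data. Over 60 pairs within groups, chi-square per gene was 1.79 or more, with a median of 11.2, so no pair differed by counting noise alone. Pairs across groups were not compared. Whether some libraries came from the same animal was not tested and cannot be told from these values. Depths of 4170660 to 14632231 counts limit the precision of low genes such as Myl7, and all intervals and tests reflect counting and library spread only.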

Additional observations from a re-analysis of the deposited data

Results flagged for a closer look

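Of 56 sets of 6 libraries checked (10 genes and 4 ratios in 4 groups), 10 had a highest or lowest library far from the other 5, where chance gives about 1 in 20. Sham/Air replicate 1 accounted for 8 of them. It was highest for Myh6 (42092 CPM, next 27280 CPM), Myh7 (424 CPM, next 353 CPM) and Mylk4 (570.2 CPM, next 354 CPM). It was lowest for Myl3 (1163 CPM, next 6560 CPM) and Acta1 (279 CPM, next 463 CPM). Its log2 ratios of Myh7 to Myh6 (-6.63, next -6.31) and Acta1 to Actc1 (-5.58, next -4.67) were the lowest of the group, and that of Myl4 to Myl3 (-5.74, next -7.56) the highest. The other 2 were Sham/Benzene replicate 1, highest for Actc1 (13124 CPM, next 11218 CPM), and TAC/Air replicate 4, highest for the log2 ratio of Myh7 to Myh6 (-2.14, next -2.26). In Sham/Air replicate 1, Myh6 and Myl3 thus lay on opposite sides of the other libraries.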

How the results depend on the processing

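Over 1640 recomputed log2 fold changes of the 10 genes, 1620 kept their side of the threshold, 3 lost it, 17 gained it and 0 called values reversed. Of these 1640, 46 had the other sign, with no call on either side. The interaction gave 0 called members, but 1 with DESeq2, 2 with limma-voom, 1 with GC and length offsets, 1 without Sham/Air replicate 1 and Sham/Benzene replicate 4 together, and 0 to 1 when 1 library was left out (1 without either of those libraries). With these 2 libraries left out the interaction of the Acta1 to Actc1 ratio was 1.05 (adjusted p = 0.00481) and that of Myl7 to Myl2 was -0.51 (adjusted p = 0.222). Leaving out 1 library at a time gave 0.66 to 0.92 for that interaction, which passed in 3 of 24 cases (without Sham/Air replicate 1, Sham/Benzene replicate 3 or Sham/Benzene replicate 4). It gave -0.31 to -0.22 for Myl4 to Myl3 with benzene in TAC mice, which passed in 2 of 12 cases (without TAC/Air replicate 5 or TAC/Benzene replicate 2). It gave -0.94 to -0.44 for Myl4 to Myl3 with TAC in benzene (1 of 12, without Sham/Benzene replicate 1) and -1.14 to -0.64 for Myl7 to Myl2 with TAC in benzene (2 of 12, without Sham/Benzene replicate 1 or 3). It gave -1.18 to -0.68 for the interaction of Myl7 to Myl2 (4 of 24, without Sham/Benzene replicate 1 or 3, TAC/Air replicate 6 or TAC/Benzene replicate 4). The cause was not tested. Members called for TAC ranged from 5 to 7 in air and from 7 to 9 in benzene over 33 alternatives each, and from 7 to 8 in benzene when 1 library was left out. The share of all tested genes called also changes with the setting. For TAC it was 16.2% in air and 16.6% in benzene, and 23.6% and 27.2% without those 2 libraries. For the other alternatives and for the interaction it is not given, so these member counts are not set against a background. With a replicate block the ratio changes were the same in size, 4.06 and 3.86 for Myh7 to Myh6 and 2.67 and 3.41 for Acta1 to Actc1 with TAC in air and in benzene, and 0.86 for Acta1 to Actc1 and -0.35 for Myl7 to Myl2 with benzene in TAC mice. None passed (adjusted p = 0.0781 for each) because 6 pairs cannot give an exact permutation p below 0.0312. The block changed no count of called members. Replicate numbers are not shown to pair the libraries. Same-numbered libraries of groups with the same surgery had correlations over 0.1 in 9 of 12 pairs (4 of 6 for the sham groups and 5 of 6 for the TAC groups, from -0.03 to 0.47), and those of different surgery in 0 of 24 (from -0.53 to 0.09). In the TAC groups 5 of 12 libraries correlated best with their own number, and in the sham groups 3 of 12. Over all groups, correlations over 0.1 occurred in 9 of 36 same-numbered pairs and in 66 of 180 pairs with other numbers (up to 0.50). The lower depth of Sham/Air replicate 1 limits what its low genes, such as Mir208b at 0 counts, can show.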

Other observations

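The rows of the count table that lie inside or opposite Myh7 moved the other way. Mhrt, a noncoding transcript antisense to Myh7, had a median of 37.0 CPM in Sham/Air, 41.4 CPM in Sham/Benzene, 24.5 CPM in TAC/Air, with 23.2 CPM in TAC/Benzene. It fell with TAC by -0.58 ± 0.10 (SE) in air (adjusted p = 0.000171) and -0.85 ± 0.10 in benzene (adjusted p = 5.99e-07) on the log2 scale, while Myh7 rose. Mir208b, the row of the microRNA gene in an intron of Myh7, had medians of 4.64, 6.10, 1.92 and 1.90 CPM. It fell with TAC in benzene by -1.80 ± 0.42 (adjusted p = 0.00332), and in air its change was -1.27 ± 0.44 (adjusted p = 0.0510), or -1.44 without Sham/Air replicate 1 (adjusted p = 0.00640). Mir208b was chosen after its values were seen, rests on 0 to 174 counts per library, and poly-A libraries do not measure mature microRNAs. How reads over Myh7 were assigned to these rows is not given in the sources used here.

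In TAC/Air, all 10 genes parted between replicates 1, 2 and 3 and replicates 4, 5 and 6. The first 3 were higher for 8 genes, such as Myh6 (16716 to 17597 CPM against 12852 to 14736 CPM), Myh7 (3380 to 3499.6 CPM against 2918 to 3078 CPM), Myl4 (27.5 to 33.5 CPM against 18.8 to 21.4 CPM) and Myl7 (16.8 to 18.5 CPM against 9.05 to 12.4 CPM). They were lower for Actc1 (9698 to 10097 CPM against 10688 to 10795 CPM) and Mylk4 (160.0 to 187 CPM against 196 to 209 CPM). In Sham/Benzene the first 3 were lower for all 4 genes that parted, Myl2, Myl3, Myl4 and Myl7. In Sham/Air they were lower for 5 (Myh7b, Myl3, Myl4, Myl7 and Acta1) and higher for Actc1 and Mylk4, and in TAC/Benzene they were higher for 3 (Myh7b, Myl3 and Myl7). The ratio of Myh7 to Myh6 differed little between the sets: its log2 difference with TAC was 4.06 and 4.07 in air and 3.85 and 3.86 in benzene within replicates 1 to 3 and 4 to 6. This division was chosen after seeing the data, and its part in the changes with TAC was not tested. The share of all tested genes that part by it was not computed. The counts are therefore not shown to be particular to these genes.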
